A study of Homo sapiens with 24 samples.

Results

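The genes described here are 43 genes of glycolysis and of the cellular response to low oxygen, chosen by symbol. They comprise 17 core glycolytic enzymes, 2 enzymes that set the level of a phosphofructokinase activator, 4 glucose and lactate transporters, 3 subunits of hypoxia-inducible factor (HIF), 2 HIF prolyl hydroxylases and 15 target genes of HIF. Where several probes of a gene passed the filter, the brightest on average stood for it, and 37 of the 43 were tested among 13344 genes in all. No probe of SLC2A3, EGLN3 or PDK1 passed the filter on dim probes, and SLC16A1, SLC16A3 and CA9 were not analysed here.

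Transcript levels had been measured in PC3 and LNCaP, established human prostate cancer cell lines, after exposure to the thiopeptide antibiotic Siomycin A or to its solvent DMSO alone. The 8 groups, PC3 or LNCaP with Siomycin or DMSO for 24 h or 48 h, held 3 Illumina bead arrays each, 24 in all. The treatment protocol gives the dose as 0.5 microM and the sample titles give 5 microM, so no dose is stated here. The labels do not say whether the 3 replicates of a group were separate cultures, and p-values therefore measure the spread between arrays, which may be technical. Whole cultures were measured, so that fewer cells of a kind and less RNA per cell cannot be told apart.

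Glycolysis splits glucose into pyruvate in the cytosol, and lactate dehydrogenase turns pyruvate into lactate when it does not enter the mitochondria. HIF is a dimer of an oxygen-regulated alpha subunit, such as HIF1A or EPAS1, with the stable partner ARNT. Prolyl hydroxylases mark the alpha subunits for destruction while oxygen is plentiful, and stabilised HIF binds short DNA motifs and switches on glycolytic enzymes together with genes for vessel growth, mitophagy, collagen modification and pH control. Control of the alpha subunits lies mostly at the protein, which was not measured here.

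Mean intensity ran from 314.4 to 498.8 across the 24 arrays, the background centre from 97.7 to 116.4, and each array showed 17010 to 20101 of its 47318 probes above that background. The lowest mean belonged to PC3 Siomycin 48 h replicate 3. Replicates within a group had correlations from 0.981 to 0.995, and for each of the 24 arrays the closest other array was such a replicate. Markers of the lines followed the labels: 7 of 8 tested LNCaP markers and 10 of 10 PC3 markers were higher on every array of their own line than on any array of the other, with the homeobox gene HOXB13 as the exception. Of the LNCaP Siomycin 24 h arrays, replicate 1 stood apart. Its mean over the 17 core enzymes was -0.08 relative to each gene's own mean on the log2 scale, against -0.35 and -0.35 on the other 2 arrays.

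The promoters of the members were read for the short motifs that HIF is known to bind, because HIF targets were among the members that moved together. The windows, taken from RefSeq on GRCh38.p14, hold the 250 bases before an annotated transcription start. The table held 37 of the 43 members with 65 windows. The motifs searched were ACGTG and GCGTG on both strands, and the palindrome CACGTG counts as 2 matches because it holds ACGTG on each strand. Among the tested members, 60.7% of 56 windows held at least 1 match, against 53.2% of 15310 windows of all genes tested and 43.2% of 35116 windows in the table. At least 1 match stood in 9 of 10 windows of the HIF targets and in 19 of 37 windows of the core enzymes. The 10 windows belong to 9 of the 13 tested HIF targets, as VEGFA, NDRG1, BNIP3L and HILPDA had no window. Several windows of 1 gene overlap, and a match is a description of the sequence, not a site of binding.

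The windows of 5 members with textbook roles in the pathway are shown, written 5′ to 3′ on the gene's own strand with the matches in capitals. Each window shown holds a match, whereas the only windows of SLC2A1, PKM, LDHB, PGAM1 and P4HA2 hold 0. ADM has 1 match in chr11:10304823-10305072 on the plus strand, and ALDOC has 5 in chr17:28576896-28577145 on the minus strand. ANKRD37 has 3 in chr4:185396591-185396840, LDHA has 5 in chr11:18394313-18394562, and PGK1 has 3 in chrX:78103998-78104247, all on the plus strand. The LDHA window is the one of its 2 with more matches, and the other has 1.
ADM: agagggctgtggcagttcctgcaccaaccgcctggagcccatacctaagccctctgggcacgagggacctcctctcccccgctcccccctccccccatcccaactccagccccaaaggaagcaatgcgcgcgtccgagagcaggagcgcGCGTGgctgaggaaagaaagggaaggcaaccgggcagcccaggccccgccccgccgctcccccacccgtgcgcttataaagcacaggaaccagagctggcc
ALDOC: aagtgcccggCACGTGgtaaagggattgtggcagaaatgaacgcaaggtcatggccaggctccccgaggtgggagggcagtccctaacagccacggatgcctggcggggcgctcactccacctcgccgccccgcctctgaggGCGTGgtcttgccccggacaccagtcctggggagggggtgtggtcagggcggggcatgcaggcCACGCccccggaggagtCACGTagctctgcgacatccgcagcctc
ANKRD37: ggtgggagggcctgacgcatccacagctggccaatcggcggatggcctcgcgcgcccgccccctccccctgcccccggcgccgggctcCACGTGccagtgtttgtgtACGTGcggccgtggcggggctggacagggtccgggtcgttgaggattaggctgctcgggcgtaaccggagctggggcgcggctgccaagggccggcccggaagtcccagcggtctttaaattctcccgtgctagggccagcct
LDHA: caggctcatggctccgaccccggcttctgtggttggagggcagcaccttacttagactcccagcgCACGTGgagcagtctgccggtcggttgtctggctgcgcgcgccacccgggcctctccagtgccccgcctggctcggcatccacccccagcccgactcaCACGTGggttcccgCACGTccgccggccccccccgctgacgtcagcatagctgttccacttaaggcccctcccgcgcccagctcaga
PGK1: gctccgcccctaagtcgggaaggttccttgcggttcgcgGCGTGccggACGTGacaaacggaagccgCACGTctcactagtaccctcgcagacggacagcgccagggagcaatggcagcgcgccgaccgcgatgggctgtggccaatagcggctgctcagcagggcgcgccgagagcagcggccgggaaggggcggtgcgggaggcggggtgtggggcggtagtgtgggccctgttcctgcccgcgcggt

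In PC3, most members were higher with Siomycin at both times. At 24 h, 24 of the 37 tested members were higher than with DMSO and 1 was lower, at an adjusted p under 0.05 in limma, where 23.0% of all genes tested were called in either direction, 11.0% higher and 11.9% lower. At 48 h, 30 members were higher and 1 was lower, against 45.8% of all genes called, 19.5% higher and 26.3% lower. The median log2 fold change of the members was 0.45 at 24 h and 0.74 at 48 h, while that of all genes was -0.00 and -0.04. When arrays were only centred on their medians and not quantile normalized, 16 members were called higher at 24 h and 26 at 48 h. The shares of all genes called in this text come from the quantile normalized values. Those under median centring are not given here. The calls lost were those of GPI, PFKM, PFKP, GAPDH, PGK1, CA12, HILPDA and P4HA1 at 24 h and of TPI1, EPAS1, EGLN1 and KDM3A at 48 h. In LNCaP members were called in both directions. At 24 h, 5 were higher and 4 lower with a median of 0.03. Those counts were near the shares of all genes, of which 20.8% were called, 10.5% higher and 10.4% lower. With median centring the members called higher and lower were 1 and 2, and with cyclic loess 6 and 2. At 48 h, 13 were higher and 7 lower, the lower count near the share of all genes. The median was 0.06, beside 37.4% of all genes called, 19.0% higher and 18.4% lower. With median centring the members called at 48 h were 8 higher and 4 lower, without the higher calls of HK1, PFKM, HIF1A, BNIP3 and ANKRD37 and the lower calls of TPI1, GAPDH and EGLN1.

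**Figure D1:**
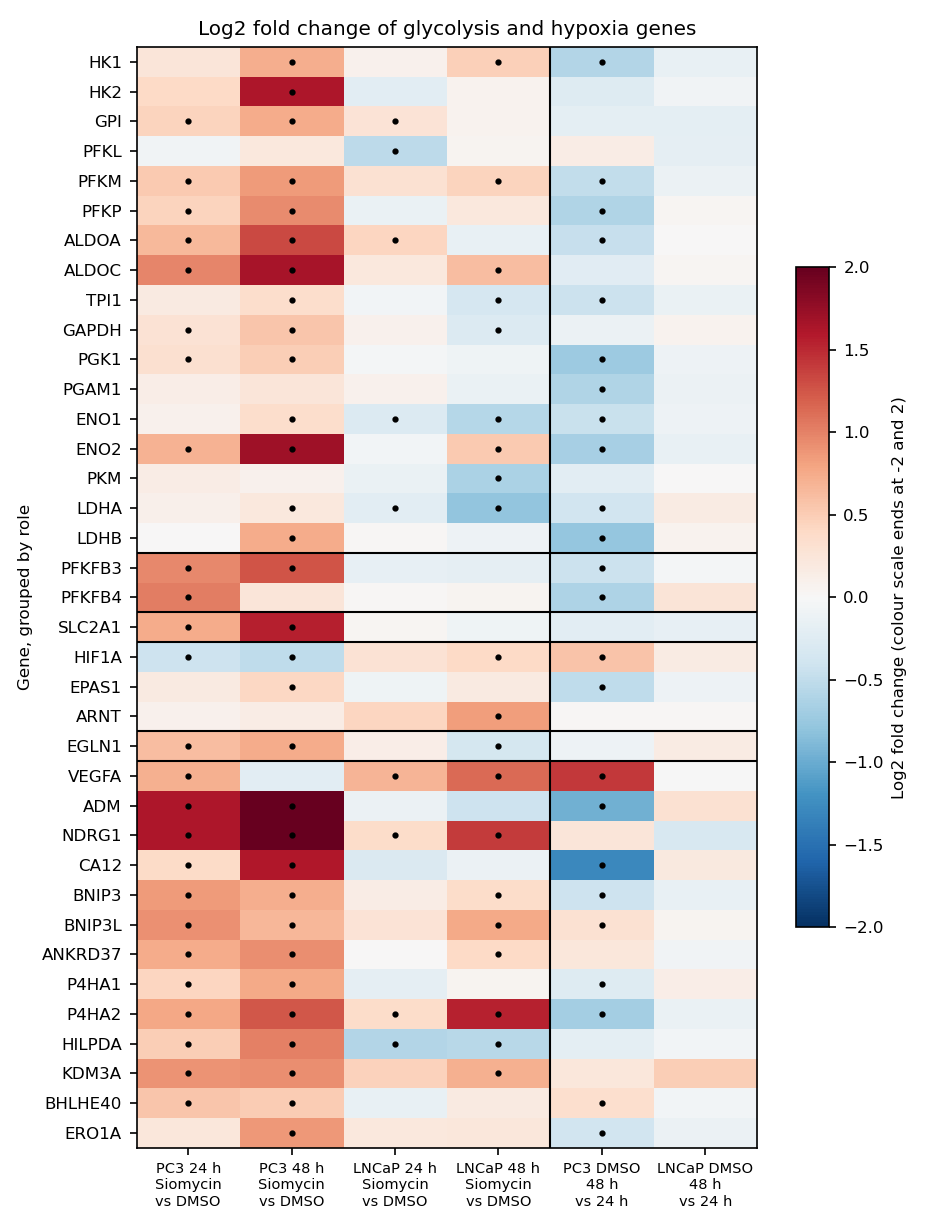
Log2 fold changes of the 37 tested members, one row per gene grouped by role, in 4 comparisons of Siomycin with DMSO and in DMSO at 48 h against 24 h in each line; colour gives the log2 fold change, with the scale ending at -2 and 2, and a dot marks an adjusted p under 0.05 in limma. The PC3 48 h column carries 30 dots on positive values, the LNCaP 48 h column 13 on positive and 7 on negative values, and the LNCaP DMSO column none.

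In PC3, 8 of the 17 core enzymes rose and 0 fell at 24 h (median log2 fold change 0.29), and 14 rose and 0 fell at 48 h (median 0.72), where 11.0% and 19.5% of all genes rose. Of the 13 tested HIF targets, 12 rose and 0 fell at each time, with medians of 0.74 at 24 h and 0.93 at 48 h. In LNCaP at 24 h, 2 core enzymes rose and 3 fell (median -0.05), and 3 HIF targets rose and 1 fell (median 0.15), beside 10.5% of all genes higher and 10.4% lower. At 48 h in that line, 4 core enzymes rose and 5 fell (median -0.09), and 7 HIF targets rose and 1 fell (median 0.36), beside 19.0% of all genes higher and 18.4% lower. The 2 gene groups were not tested against each other.

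**Figure D2:**
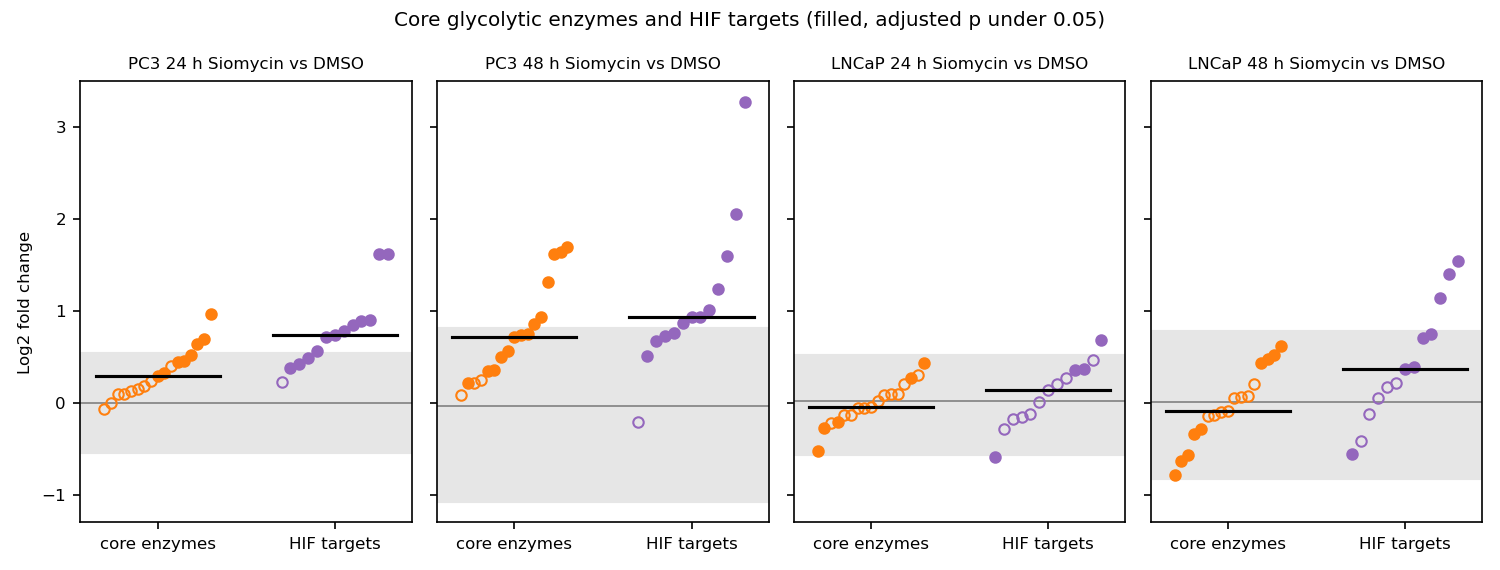
Log2 fold change (vertical axis) of each core enzyme and HIF target in the 4 comparisons of Siomycin with DMSO; filled points passed an adjusted p under 0.05, the bar is the median of the gene group, and the grey band spans the 5th to 95th percentile of all genes tested. HIF target medians run from 0.15 in LNCaP at 24 h to 0.93 in PC3 at 48 h, and core enzyme medians from -0.09 in LNCaP at 48 h to 0.72 in PC3 at 48 h.

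The entry steps of glycolysis rose in PC3. HK2, the inducible hexokinase that traps glucose as its phosphate, had log2 signals of 8.34, 8.48 and 8.50 on the PC3 DMSO arrays at 48 h and 9.89, 10.15 and 10.12 on the Siomycin arrays. All 3 Siomycin arrays lay above all DMSO arrays, a log2 fold change of 1.61 ± 0.15 (SE, adjusted p = 1.9e-08, limma). At 24 h the PC3 difference was 0.40 ± 0.15 and missed the threshold (adjusted p = 0.053). In LNCaP at 48 h HK2 read 7.83, 8.17 and 8.11 with DMSO and 8.16, 8.08 and 8.09 with Siomycin, and the groups overlapped (0.07 ± 0.15, adjusted p = 0.75). SLC2A1, the glucose transporter GLUT1, followed the same order in PC3, with 9.76, 9.80 and 9.73 in DMSO and 10.46, 10.51 and 10.55 in Siomycin at 24 h. At 48 h it read 9.54, 9.53 and 9.57 in DMSO and 10.99, 11.13 and 11.17 in Siomycin. Its groups did not overlap at either time, with log2 fold changes of 0.74 ± 0.09 (adjusted p = 2.8e-06) and 1.55 ± 0.09 (adjusted p = 1.7e-11). In LNCaP the SLC2A1 differences were 0.04 ± 0.09 at 24 h and -0.08 ± 0.09 at 48 h, neither past the threshold (adjusted p = 0.82 and 0.53).

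Phosphofructokinase is the committed step of the pathway. Its platelet form PFKP and muscle form PFKM rose in PC3, PFKP by 0.45 ± 0.10 (adjusted p = 0.0016) at 24 h and 0.94 ± 0.10 (adjusted p = 9.2e-08) at 48 h, and PFKM by 0.52 ± 0.12 (adjusted p = 0.0042) and 0.86 ± 0.12 (adjusted p = 1e-05). Of the 4 comparisons with DMSO of the same time, the liver form PFKL was called in LNCaP at 24 h, where the DMSO arrays read 8.14, 8.40 and 8.40 and the Siomycin arrays 8.01, 7.83 and 7.53. That fall of 0.52 ± 0.12 on the log2 scale (adjusted p = 0.0025) was -0.23 over the mean of the kept PFKL probes (adjusted p = 0.24). PFKFB3 and PFKFB4 make fructose 2,6-bisphosphate, the strongest known activator of phosphofructokinase, and both rose in PC3 at 24 h. PFKFB3 had 9.49, 9.53 and 9.53 in DMSO and 10.37, 10.57 and 10.51 in Siomycin, a change of 0.96 ± 0.11 (adjusted p = 1.8e-06). PFKFB4 had 9.52, 9.39 and 9.34 in DMSO and 10.40, 10.46 and 10.47 in Siomycin, a change of 1.03 ± 0.10 (adjusted p = 3.3e-07). They parted at 48 h: PFKFB3 was higher by 1.25 ± 0.11 (adjusted p = 8.7e-09), whereas PFKFB4 read 8.82, 8.86 and 8.72 in DMSO and 9.15, 8.98 and 9.01 in Siomycin, a difference of 0.24 ± 0.10 that missed the threshold (adjusted p = 0.052). Neither was called in LNCaP, with log2 fold changes between -0.17 and 0.05.

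The aldolases, which split the doubly phosphorylated sugar, gave some of the larger changes. ALDOC, the form best known from brain, had log2 signals of 9.97, 10.08 and 10.20 in PC3 DMSO and 11.04, 10.98 and 11.14 in PC3 Siomycin at 24 h. At 48 h it had 9.96, 9.81 and 9.79 in DMSO and 11.56, 11.42 and 11.50 in Siomycin. Every Siomycin array lay above every DMSO array, with log2 fold changes of 0.97 ± 0.10 (adjusted p = 5.2e-07) and 1.64 ± 0.10 (adjusted p = 4.6e-11). In LNCaP ALDOC was called at 48 h, with 10.81, 10.81 and 10.75 in DMSO and 11.43, 11.39 and 11.42 in Siomycin (0.62 ± 0.10, adjusted p = 3.5e-05). ALDOA, the main aldolase of most cells, had 11.61, 11.57 and 11.42 in PC3 DMSO and 12.84, 12.85 and 12.85 in PC3 Siomycin at 48 h. Its groups did not overlap, and the log2 fold change was 0.65 ± 0.08 (adjusted p = 3.8e-06) at 24 h and 1.32 ± 0.08 (adjusted p = 3.4e-11) at 48 h, although the 3 ALDOA probes ranged from -0.07 to 1.32 at 48 h and 2 of them were called. In LNCaP at 24 h ALDOA read 11.69, 11.71 and 11.79 in DMSO and 12.29, 12.22 and 11.98 in Siomycin, a rise of 0.44 ± 0.08 (adjusted p = 0.00029) that missed the threshold in a fit of those 6 arrays alone (adjusted p = 0.076). At 48 h in LNCaP the difference was -0.14 ± 0.08 (adjusted p = 0.16). The 3 ALDOA probes ranged from -0.14 to 0.49 there and 0 were called, so the direction depended on the probe.

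**Figure D3:**
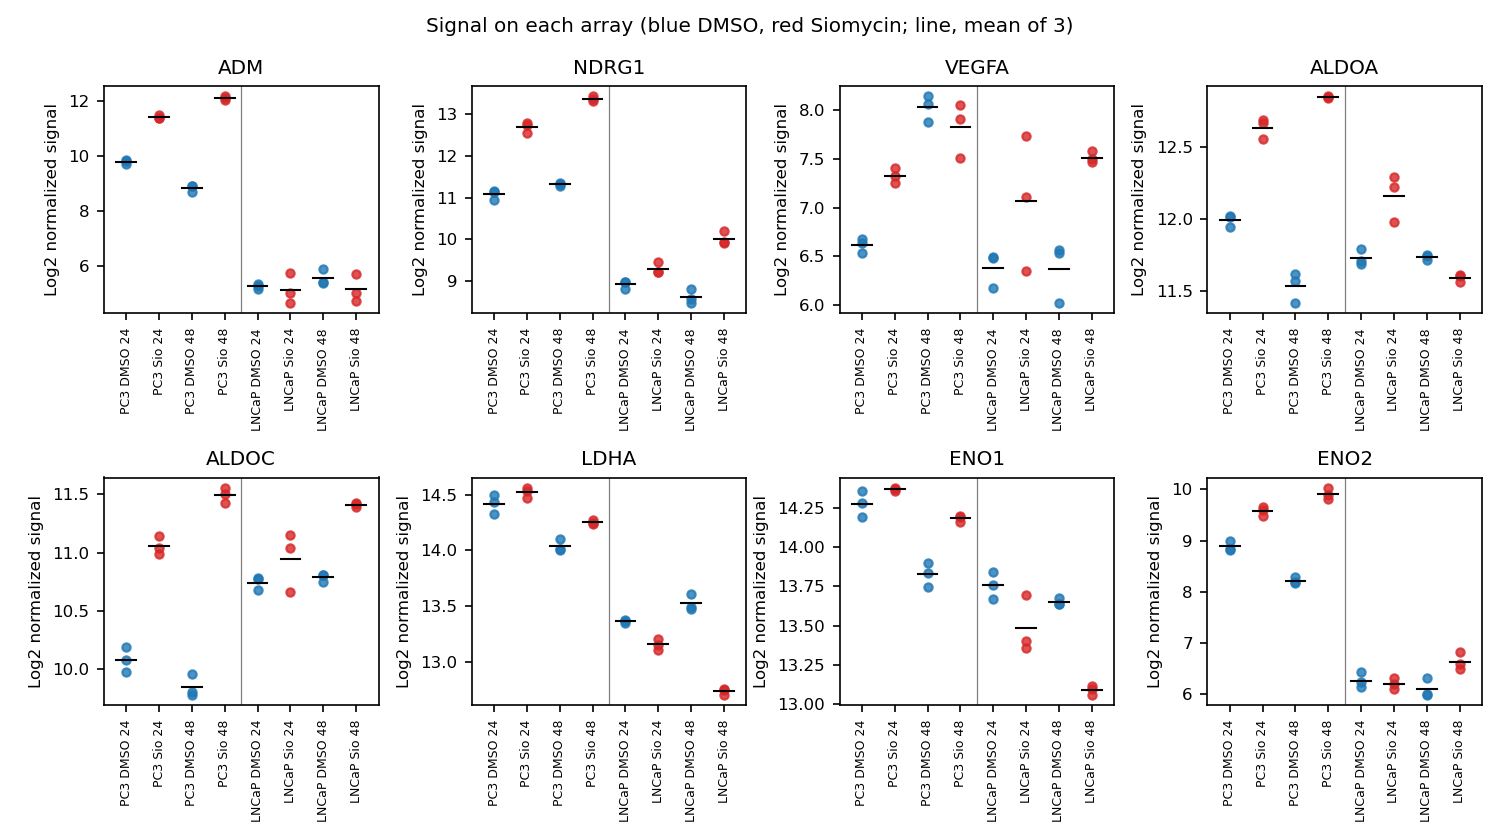
Log2 normalized signal of 8 members on each of the 24 arrays (points, blue for DMSO and red for Siomycin; the line is the mean of 3), with PC3 on the left of each panel and LNCaP on the right. ADM runs from 8.70 to 8.92 in PC3 DMSO at 48 h and from 12.05 to 12.17 in PC3 Siomycin at 48 h, whereas LDHA in LNCaP at 48 h is lower with Siomycin, at 12.71 to 12.76 against 13.48 to 13.61.

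The second enolase gene, ENO2, known as the neuronal form, had the largest log2 fold change of the core enzymes in PC3 at 48 h. It had 8.82, 8.84 and 9.00 in PC3 DMSO and 9.66, 9.49 and 9.60 in Siomycin at 24 h (0.69 ± 0.11, adjusted p = 8.9e-05). The 48 h arrays read 8.30, 8.19 and 8.17 in DMSO and 10.03, 9.89 and 9.81 in Siomycin, a 3.23-fold rise (log2 1.69 ± 0.11, adjusted p = 1.4e-10). In LNCaP ENO2 went from 6.01, 6.00 and 6.32 to 6.49, 6.83 and 6.58 at 48 h, again without overlap (0.53 ± 0.11, adjusted p = 0.00062). HK1, the constitutive hexokinase, also rose at 48 h in both lines, by 0.72 ± 0.09 in PC3 (adjusted p = 9.2e-07) and 0.48 ± 0.09 in LNCaP (adjusted p = 0.00017). Against the PC3 DMSO arrays of 24 h the HK1 value in PC3 was 0.14 and not called (adjusted p = 0.2). Over the mean of the kept HK1 probes the LNCaP value was 0.14 (adjusted p = 0.34), and with median centring 0.35 (adjusted p = 0.096). PFKM rose in LNCaP at 48 h by 0.44 ± 0.12 (adjusted p = 0.0082), a call lost with median centring (0.35, adjusted p = 0.14). Thus 4 core enzymes, HK1, PFKM, ALDOC and ENO2, were higher in both lines at 48 h, each against its own DMSO arrays of that time.

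A further 4 core enzymes, TPI1, GAPDH, ENO1 and LDHA, were called in opposite directions in the lines at 48 h, each against its own DMSO arrays of that time. Against the PC3 DMSO arrays of 24 h the PC3 values were -0.08 for TPI1 (adjusted p = 0.67), -0.09 for ENO1 (adjusted p = 0.37) and -0.17 for LDHA (adjusted p = 0.034), so that 3 of these 4 no longer had opposite signs, while GAPDH stood at 0.45 (adjusted p = 6e-05). LDHA, which makes lactate from pyruvate, read 14.00, 14.01 and 14.10 in PC3 DMSO and 14.27, 14.25 and 14.24 in PC3 Siomycin, a rise of 0.21 ± 0.06 (adjusted p = 0.0092) that missed the threshold in a fit of those 6 arrays alone (adjusted p = 0.058). In LNCaP it read 13.48, 13.61 and 13.49 in DMSO and 12.76, 12.71 and 12.76 in Siomycin, and all 3 Siomycin arrays lay below the DMSO arrays. The fall was 0.79 ± 0.06 on the log2 scale (adjusted p = 6.7e-09), and the 3 LDHA probes ranged from -0.79 to -0.25 with 2 called. ENO1, the main enolase, read 13.84, 13.75 and 13.90 in PC3 DMSO and 14.20, 14.19 and 14.16 in Siomycin (0.36 ± 0.08, adjusted p = 0.001). In LNCaP it went from 13.64, 13.64 and 13.68 to 13.09, 13.11 and 13.06, a fall without overlap (-0.56 ± 0.08, adjusted p = 1.1e-05). GAPDH, the enzyme that yields the pathway's NADH, read 13.84, 13.75 and 13.85 in PC3 DMSO and 14.34, 14.38 and 14.39 in Siomycin (0.56 ± 0.08, adjusted p = 4.5e-06). In LNCaP GAPDH read 13.66, 13.72 and 13.69 in DMSO and 13.39, 13.44 and 13.41 in Siomycin (-0.28 ± 0.08, adjusted p = 0.0063), a call that ended with cyclic loess (-0.16, adjusted p = 0.2) and with median centring (-0.24, adjusted p = 0.2).

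TPI1, triose phosphate isomerase, had the largest adjusted p of these 4 in each line. It was higher by 0.35 ± 0.13 in PC3 (adjusted p = 0.029) and lower in LNCaP, at -0.34 ± 0.13 (adjusted p = 0.041). The PC3 call was lost without DMSO 48 h replicate 3 (0.28, adjusted p = 0.13), without Siomycin 48 h replicate 2 (0.31, adjusted p = 0.092) and without Siomycin 48 h replicate 3 (0.36, adjusted p = 0.053). The LNCaP call was lost without DMSO 48 h replicate 2 or 3 (adjusted p = 0.1 and 0.11) and without Siomycin 48 h replicate 1, 2 or 3 (adjusted p = 0.13, 0.078 and 0.053). PKM, which makes pyruvate, fell in LNCaP at 48 h from 10.40, 10.28 and 10.30 to 9.67, 9.79 and 9.63 (-0.63 ± 0.10, adjusted p = 4.4e-05). The 3 PKM probes ranged from -0.63 to -0.15 there with 2 called, and over their mean the difference was -0.38 (adjusted p = 0.0069). The PKM difference in PC3 at 48 h was 0.08 ± 0.10 (adjusted p = 0.55). At 24 h in LNCaP, ENO1 at -0.27 ± 0.08 (adjusted p = 0.018) and LDHA at -0.21 ± 0.06 (adjusted p = 0.024) were already lower, and GPI, glucose-6-phosphate isomerase, was higher by 0.27 ± 0.09 (adjusted p = 0.037). The ENO1 call was lost without LNCaP DMSO 24 h replicate 2 (adjusted p = 0.088) or Siomycin 24 h replicate 2 or 3 (adjusted p = 0.088 and 0.08). The LDHA call was lost without DMSO 24 h replicate 1, 2 or 3 (adjusted p = 0.062, 0.052 and 0.067) or Siomycin 24 h replicate 3 (adjusted p = 0.082). The GPI call was lost without DMSO 24 h replicate 1, 2 or 3 (adjusted p = 0.13, 0.075 and 0.05) or Siomycin 24 h replicate 1 (0.16, adjusted p = 0.17).

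The HIF subunits did not share 1 direction. HIF1A, the oxygen-regulated alpha subunit, had 9.62, 9.84 and 9.97 in PC3 DMSO and 9.06, 9.44 and 9.43 in PC3 Siomycin at 48 h. That fall of 0.50 ± 0.14 (adjusted p = 0.0076) was -0.38 without Siomycin 48 h replicate 1 (adjusted p = 0.055) and -0.22 over the mean of the 3 kept HIF1A probes (adjusted p = 0.22). Against the PC3 DMSO arrays of 24 h it was 0.07 (adjusted p = 0.74). At 24 h in PC3 it was lower, at -0.41 ± 0.14 (adjusted p = 0.044), a call lost without DMSO 24 h replicate 1 or 2 (adjusted p = 0.19 and 0.078) or any of the 3 Siomycin 24 h arrays (adjusted p = 0.098, 0.095 and 0.099). In LNCaP at 48 h HIF1A was higher, 7.54, 7.49 and 7.62 with DMSO against 7.96, 7.80 and 8.07 with Siomycin (0.39 ± 0.14, adjusted p = 0.039). That call was lost without any of the 3 DMSO 48 h arrays (adjusted p = 0.084, 0.1 and 0.056) or Siomycin 48 h replicate 1 or 3 (adjusted p = 0.087 and 0.14). EPAS1, the alpha subunit of HIF2, rose in PC3 at 48 h from 8.71, 8.70 and 8.79 to 9.12, 9.09 and 9.25 (0.42 ± 0.11, adjusted p = 0.0041), and was not well above background on any LNCaP array. With median centring the PC3 value was 0.04 (adjusted p = 0.87), and against the DMSO arrays of 24 h it was -0.09 (adjusted p = 0.56).

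ARNT, the common partner, rose in LNCaP at 48 h from 5.47, 5.65 and 5.75 to 6.17, 6.40 and 6.80 (0.83 ± 0.19, adjusted p = 0.0016). In PC3 it was above background on 1 of 3 arrays in each group. EGLN1, the prolyl hydroxylase PHD2 that is itself a HIF target, was called in opposite directions at 48 h. It read 7.05, 7.11 and 7.12 in PC3 DMSO and 7.69, 7.81 and 7.99 in PC3 Siomycin (0.74 ± 0.10, adjusted p = 5.3e-06), against 6.73, 6.76 and 6.61 in LNCaP DMSO and 6.40, 6.40 and 6.23 in LNCaP Siomycin (-0.36 ± 0.10, adjusted p = 0.0082). The groups were apart in both lines. With median centring neither call held, at 0.28 in PC3 (adjusted p = 0.17) and -0.36 in LNCaP (adjusted p = 0.11). Against the LNCaP DMSO arrays of 24 h the LNCaP value was -0.19 (adjusted p = 0.15).

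Among the HIF targets, ADM had the largest change in PC3. ADM encodes adrenomedullin, a vasodilator peptide, and its promoter window is printed above. It had 9.87, 9.71 and 9.83 in PC3 DMSO and 11.39, 11.39 and 11.48 in Siomycin at 24 h, and 8.92, 8.70 and 8.90 against 12.17, 12.13 and 12.05 at 48 h. The Siomycin arrays lay above the DMSO arrays at both times, by 1.62 ± 0.22 (adjusted p = 2.5e-05) and by 3.28 ± 0.22 (adjusted p = 3.6e-10), the latter a 9.69-fold difference. In LNCaP ADM was above background on 2 of 3 arrays of each treatment at 24 h, and on 3 DMSO arrays and 1 Siomycin array at 48 h, and its differences of -0.12 ± 0.22 and -0.42 ± 0.22 missed the threshold (adjusted p = 0.79 and 0.16). NDRG1, a stress-responsive growth regulator, rose in both lines. It read 10.94, 11.13 and 11.16 in PC3 DMSO and 12.56, 12.79 and 12.74 in Siomycin at 24 h, and 11.35, 11.28 and 11.34 against 13.33, 13.37 and 13.43 at 48 h. The PC3 changes were 1.62 ± 0.10 (adjusted p = 1.3e-09) and 2.05 ± 0.10 (adjusted p = 4.8e-12), with no overlap. In LNCaP it read 8.47, 8.56 and 8.80 in DMSO and 9.90, 10.21 and 9.93 in Siomycin at 48 h (1.40 ± 0.10, adjusted p = 2e-09). The LNCaP change at 24 h, 0.36 ± 0.10 (adjusted p = 0.016), was lost without DMSO 24 h replicate 1 (adjusted p = 0.082) or Siomycin 24 h replicate 1 (0.28, adjusted p = 0.072).

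The prolyl 4-hydroxylase subunits P4HA1 and P4HA2 modify collagen. P4HA2 rose in PC3 from 8.87, 8.75 and 8.71 to 10.07, 10.01 and 9.97 at 48 h (1.24 ± 0.12, adjusted p = 2.7e-08), after a 24 h change of 0.78 ± 0.12 (adjusted p = 4.8e-05). Its LNCaP arrays at 48 h rose from 7.16, 7.19 and 7.10 to 8.65, 8.65 and 8.77, with the groups far apart (1.54 ± 0.12, adjusted p = 2.1e-09). The 3 P4HA2 probes ranged from 0.11 to 1.54 there, and 2 were called. The LNCaP call at 24 h (0.36 ± 0.12, adjusted p = 0.03) was lost without Siomycin 24 h replicate 1 (0.17, adjusted p = 0.16) or DMSO 24 h replicate 1 or 3 (adjusted p = 0.11 and 0.061). P4HA1 rose in PC3, by 0.43 ± 0.09 (adjusted p = 0.0012) and 0.76 ± 0.09 (adjusted p = 4.8e-07), and was not called in LNCaP (-0.17 ± 0.09 and 0.05 ± 0.09, adjusted p = 0.18 and 0.72).

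The mitophagy receptors BNIP3 and BNIP3L rose in PC3 at 24 h, BNIP3 from 12.02, 11.72 and 12.01 to 12.75, 12.76 and 12.79 (0.85 ± 0.08, adjusted p = 3.6e-07) and BNIP3L from 9.72, 9.74 and 9.86 to 10.60, 10.75 and 10.69 (0.91 ± 0.10, adjusted p = 2.3e-06). Both remained called in PC3 at 48 h, at 0.73 ± 0.08 (adjusted p = 4e-07) and 0.67 ± 0.10 (adjusted p = 2e-05). In LNCaP at 48 h BNIP3L rose from 9.63, 9.54 and 9.61 to 10.33, 10.42 and 10.28 (0.75 ± 0.10, adjusted p = 7e-06), and BNIP3 by 0.36 ± 0.08 (adjusted p = 0.0015). KDM3A, a histone demethylase, rose by 0.90 ± 0.19 and 0.93 ± 0.19 in PC3 (adjusted p = 0.0016 and 0.0004) and by 0.71 ± 0.19 in LNCaP at 48 h (adjusted p = 0.0052). ANKRD37, an ankyrin repeat protein whose promoter window is shown above, rose in PC3 at 48 h from 7.63, 7.62 and 7.57 to 8.50, 8.57 and 8.57 (0.94 ± 0.09, adjusted p = 2.2e-08). Its rise in LNCaP at 48 h was 0.39 ± 0.09 (adjusted p = 0.00096). All these groups were apart. With median centring the LNCaP calls of BNIP3 (0.25, adjusted p = 0.29) and ANKRD37 (0.35, adjusted p = 0.14) and the PC3 call of KDM3A at 48 h (0.49, adjusted p = 0.076) were lost. The 6 HIF targets higher in both lines at 48 h were NDRG1, BNIP3, BNIP3L, ANKRD37, P4HA2 and KDM3A.

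In CA12 and HILPDA the lines took different courses. CA12, a membrane carbonic anhydrase that hydrates carbon dioxide outside the cell, went from 7.36, 7.08 and 7.06 to 8.85, 8.69 and 8.77 in PC3 at 48 h (1.60 ± 0.11, adjusted p = 5.8e-10). Against the PC3 DMSO arrays of 24 h the CA12 value was 0.31 (adjusted p = 0.031). Its PC3 call at 24 h (0.38 ± 0.11, adjusted p = 0.018) was lost without DMSO 24 h replicate 1 (0.29, adjusted p = 0.11) or Siomycin 24 h replicate 1 (0.34, adjusted p = 0.07). In LNCaP at 48 h the CA12 groups did not overlap but their difference missed the threshold, 7.89, 7.93 and 7.84 against 7.77, 7.77 and 7.76 (-0.12 ± 0.11, adjusted p = 0.47). HILPDA, a lipid droplet protein that blocks fat breakdown, rose in PC3 at 48 h from 8.94, 8.98 and 8.95 to 10.00, 9.86 and 10.04 (1.01 ± 0.08, adjusted p = 1.4e-09). In LNCaP it fell at both times, from 9.78, 9.69 and 9.70 to 9.11, 9.06 and 9.25 at 24 h (-0.58 ± 0.08, adjusted p = 8.6e-06) and from 9.69, 9.69 and 9.63 to 8.99, 9.14 and 9.21 at 48 h (-0.56 ± 0.08, adjusted p = 6.2e-06). All 6 LNCaP Siomycin arrays lay below all 6 LNCaP DMSO arrays.

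VEGFA, the vascular growth factor, was the HIF target not called in PC3 at 48 h. It read 6.53, 6.64 and 6.68 in DMSO and 7.33, 7.26 and 7.41 in Siomycin at 24 h, a rise of 0.71 ± 0.23 (adjusted p = 0.029) that was lost when any 1 of the 6 arrays was left out (adjusted p from 0.055 to 0.089). At 48 h the DMSO arrays had themselves reached 8.14, 7.88 and 8.07, and the Siomycin arrays read 7.91, 7.51 and 8.06. These groups overlapped, with a difference of -0.21 ± 0.23 (adjusted p = 0.51). In LNCaP the DMSO arrays stayed at 6.54, 6.02 and 6.57 at 48 h and the Siomycin arrays read 7.50, 7.58 and 7.46, a rise without overlap (1.14 ± 0.23, adjusted p = 0.00046). At 24 h in LNCaP the Siomycin arrays were spread widely, at 7.74, 6.35 and 7.11, against 6.48, 6.49 and 6.18. The call there (0.68 ± 0.23, adjusted p = 0.039) was lost without Siomycin 24 h replicate 1 or 3 (0.34 and 0.66, adjusted p = 0.24 and 0.09), or without DMSO 24 h replicate 1, 2 or 3 (adjusted p = 0.065, 0.061 and 0.14).

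The DMSO controls of PC3 themselves changed between 24 h and 48 h. Of the 37 tested members, 20 were lower and 4 higher on the PC3 DMSO 48 h arrays than on the 24 h arrays, where 13.9% of all genes were lower and 14.4% higher. With median centring 24 were lower and 1 higher, a scaling for which no share of all genes is given. The core enzymes had a median difference of -0.45, with 11 of 17 lower and 0 higher, against a median of 0.00 over all genes. The largest falls were those of LDHB (-0.77), PGK1 (-0.72), ENO2 (-0.67), PGAM1 (-0.60), PFKP (-0.60) and HK1 (-0.58). PGK1, phosphoglycerate kinase, read 13.16, 13.19 and 13.07 in DMSO at 24 h and 12.46, 12.46 and 12.33 at 48 h. Of the HIF targets, CA12 (-1.30) and ADM (-0.96) fell and VEGFA rose (1.41). In LNCaP DMSO 0 of 37 members were called between the times, with a median of -0.05 and 0.547% of all genes called.

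Set against the PC3 DMSO arrays of 24 h, the HIF targets of PC3 Siomycin 48 h were still higher and the core enzymes divided. All 13 tested HIF targets were higher, with a median of 0.84, where 20.8% of all genes were called higher and 28.0% lower. Of the 17 core enzymes 9 were higher and 2 lower, with a median of 0.34. PGK1 was at -0.23 (adjusted p = 0.078) in place of the rise of 0.49 ± 0.10 against the 48 h controls (adjusted p = 0.00053). LDHB stood at -0.02 (adjusted p = 0.87) in place of 0.75 ± 0.10 (adjusted p = 3.4e-06), and LDHA at -0.17 (adjusted p = 0.034), a call in the other direction. VEGFA was at 1.21 (adjusted p = 0.00017). How much of each 48 h difference belongs to the change of the controls was not tested.

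**Figure D4:**
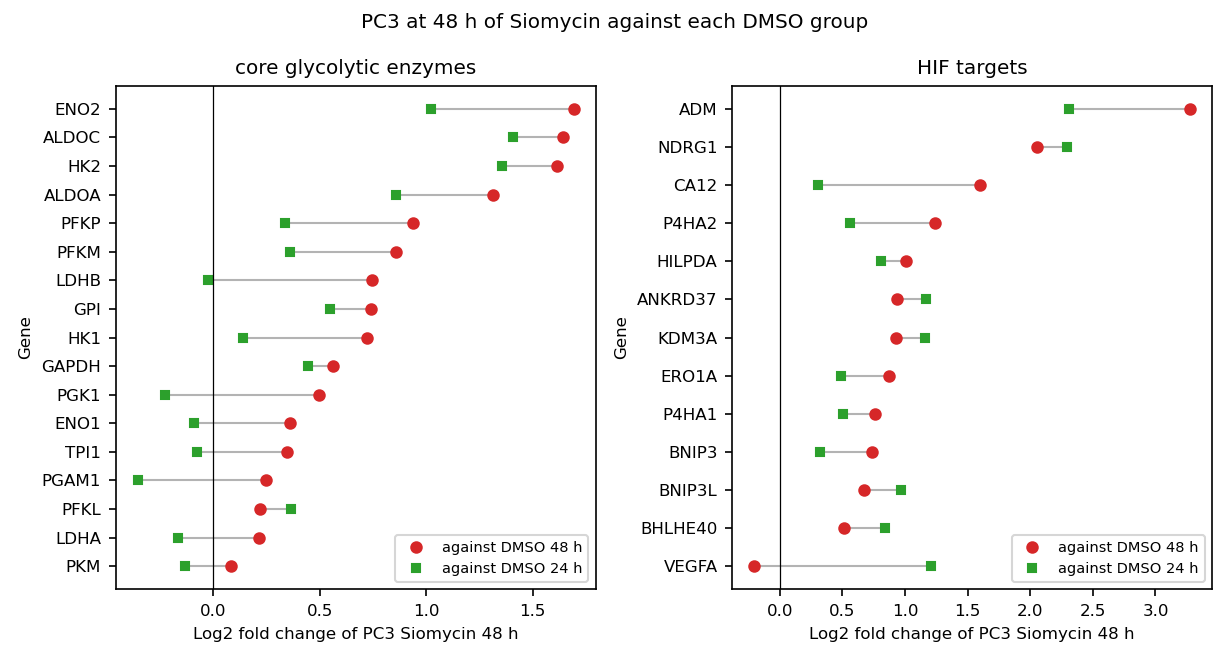
Log2 fold change (horizontal axis) of PC3 Siomycin 48 h against the DMSO arrays of 48 h (circles) and of 24 h (squares), 1 gene per line, core enzymes on the left and HIF targets on the right. LDHB moves from 0.75 to -0.02 and VEGFA from -0.21 to 1.21 between the controls, while ALDOC and ADM are positive against both.

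The change of the PC3 Siomycin effect with time was tested directly. For 14 members the effect at 48 h exceeded that at 24 h and for 2 it was smaller, beside 9.44% and 15.6% of all genes. With median centring the numbers were 5 and 2. The increase was 1.66 ± 0.32 for ADM (adjusted p = 0.00058), 1.21 ± 0.21 for HK2 (adjusted p = 0.0002) and 1.22 ± 0.16 for CA12 (adjusted p = 1.2e-05). CA12 moved on the DMSO arrays, from 8.29, 8.60 and 8.50 at 24 h to 7.36, 7.08 and 7.06 at 48 h. On the Siomycin arrays CA12 read 8.92, 8.78 and 8.84 at 24 h and 8.85, 8.69 and 8.77 at 48 h. ADM fell on the DMSO arrays, from 9.87, 9.71 and 9.83 at 24 h to 8.92, 8.70 and 8.90 at 48 h. It rose on the Siomycin arrays, from 11.39, 11.39 and 11.48 to 12.17, 12.13 and 12.05. The effect shrank for PFKFB4, at -0.78 ± 0.14 (adjusted p = 0.00034), and for VEGFA, at -0.92 ± 0.32 (adjusted p = 0.043). VEGFA rose on the DMSO arrays, from 6.53, 6.64 and 6.68 at 24 h to 8.14, 7.88 and 8.07 at 48 h. Its Siomycin arrays read 7.33, 7.26 and 7.41 at 24 h and 7.91, 7.51 and 8.06 at 48 h. The VEGFA call was lost without a probe filter (adjusted p = 0.062), over the mean of kept probes (-0.68, adjusted p = 0.057) and without any 1 of the 12 PC3 arrays other than DMSO 48 h replicate 2 and Siomycin 48 h replicate 3 (adjusted p from 0.055 to 0.11). On the Siomycin arrays alone, PC3 at 48 h against 24 h, 5 core enzymes were higher and 4 lower, with a median of -0.10, and 15.7% of all genes were higher and 23.9% lower. In LNCaP the effect was larger at 48 h for 6 members and smaller for 5, beside 4.50% and 4.39% of all genes. With median centring these numbers were 2 and 0. The largest increases were those of P4HA2 (1.18 ± 0.16, adjusted p = 0.00016) and NDRG1 (1.04 ± 0.15, adjusted p = 0.00022).

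**Figure D5:**
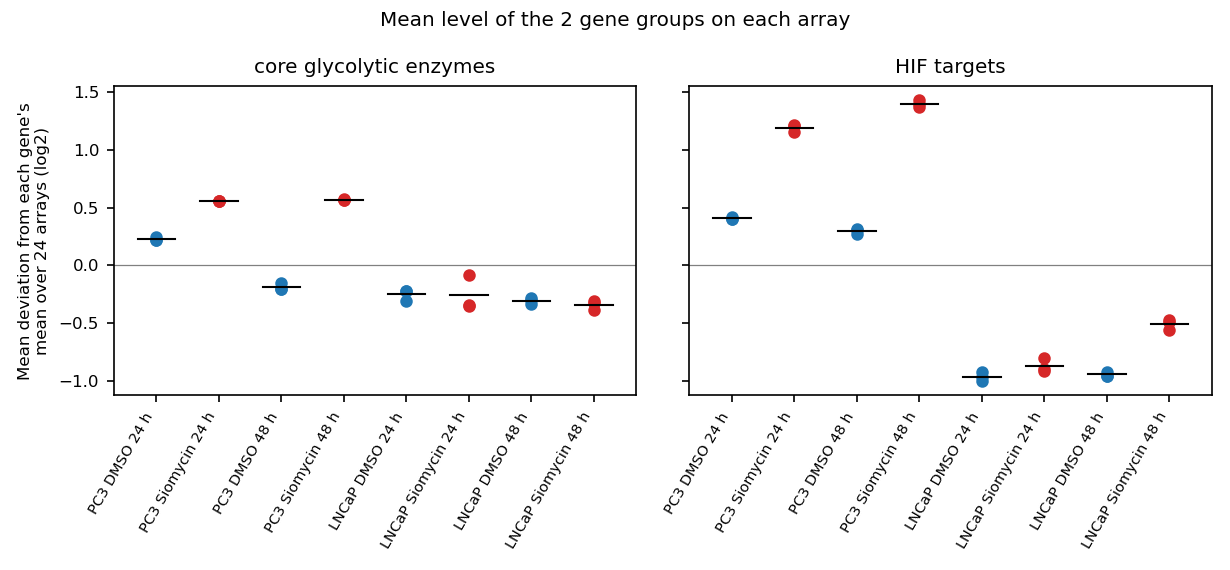
Mean deviation of the core enzymes and of the HIF targets from each gene's own mean over 24 arrays (log2, vertical axis), 1 point per array, blue for DMSO and red for Siomycin, with the line at the mean of the 3 arrays. PC3 core enzymes lie at 0.55 to 0.57 on all 6 Siomycin arrays and at -0.20 to 0.24 on the 6 DMSO arrays, while LNCaP HIF targets rise from -0.92 to -0.96 with DMSO to -0.47 to -0.56 with Siomycin at 48 h.

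The effects in the lines also differed by direct test. At 24 h the LNCaP effect was below the PC3 effect for 18 members and above it for 1, beside 7.49% and 6.75% of all genes, and with median centring for 7 and 0. At 48 h it was below for 25 and above for 3, beside 19.0% and 24.2% of all genes. The difference, LNCaP minus PC3, was -3.69 ± 0.32 for ADM at 48 h (adjusted p = 1.4e-08), -1.63 ± 0.12 for SLC2A1 (adjusted p = 2.1e-09), -1.57 ± 0.11 for HILPDA (adjusted p = 6.4e-10) and -1.46 ± 0.11 for ALDOA (adjusted p = 2e-09). The 3 ALDOA probes ranged from -0.14 to 0.49 in LNCaP and from -0.07 to 1.32 in PC3 at 48 h. For the members called in opposite directions the difference between lines was -1.0 ± 0.09 for LDHA (adjusted p = 2.7e-08), -0.92 ± 0.11 for ENO1 (adjusted p = 1.8e-06) and -1.09 ± 0.14 for EGLN1 (adjusted p = 4.1e-06). Against the DMSO arrays of 24 h of the same line, LDHA was at -0.17 in PC3 and -0.62 in LNCaP. With those controls ENO1 was at -0.09 in PC3 and -0.67 in LNCaP, and EGLN1 at 0.63 and -0.19. The 3 members with the larger effect in LNCaP were VEGFA (1.35 ± 0.32, adjusted p = 0.0021), HIF1A (0.89 ± 0.20, adjusted p = 0.0014) and ARNT (0.68 ± 0.27, adjusted p = 0.048). The VEGFA difference holds for the 48 h controls. Against the DMSO arrays of 24 h of the same line, VEGFA with Siomycin at 48 h was at 1.21 in PC3 and 1.13 in LNCaP. The lines were not tested against each other with those controls. The ARNT call was lost with cyclic loess (0.58, adjusted p = 0.09), with no background correction or the authors' deposited table (0.27 and 0.27, adjusted p = 0.056 and 0.056), without a probe filter (adjusted p = 0.068) and in a fit of those arrays alone (adjusted p = 0.11). It was also lost without LNCaP DMSO 48 h replicate 1 or 2, LNCaP Siomycin 48 h replicate 2 or 3, PC3 DMSO 48 h replicate 3, or PC3 Siomycin 48 h replicate 1 or 3 (0.41 to 0.71, adjusted p from 0.061 to 0.16). Counted jointly at 24 h, GPI, ALDOA, VEGFA, NDRG1 and P4HA2 were higher in both lines, 5 of 37 members beside 3.66% of all genes. The LNCaP call of each of these 5 was lost in some alternative given above. Leaving out 1 array gave 1 to 7 members higher in LNCaP at 24 h. HILPDA alone of the members was higher in PC3 and lower in LNCaP at 24 h, as were 0.420% of all genes. At 48 h, 10 of 37 members were higher in both lines, where 5.61% of all genes were, and 6 were higher in PC3 and lower in LNCaP, where 3.35% were. Of the 10, HK1, PFKM, BNIP3 and ANKRD37 lost the LNCaP call and KDM3A the PC3 call with median centring. Of the 6, TPI1, GAPDH and EGLN1 lost calls with that scaling. Against the PC3 DMSO arrays of 24 h, the PC3 values of TPI1, ENO1 and LDHA were negative. HIF1A was the member lower in PC3 and higher in LNCaP at 48 h, beside 5.24% of all genes. Its 3 probes ranged from -0.50 to -0.04 in PC3 and from 0.16 to 0.39 in LNCaP at that time.

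The lines also differed under DMSO alone. At 24 h, 25 members were lower and 6 higher in LNCaP than in PC3, beside 31.5% and 29.5% of all genes. At 48 h, 23 were lower and 10 higher, beside 31.6% and 30.9%. Probes of ADM (-4.54 at 24 h and -3.27 at 48 h), BHLHE40, a circadian repressor (-2.90 and -3.28), ENO2 (-2.62 and -2.11) and P4HA1 (-2.45 and -2.06) were far dimmer in LNCaP. EPAS1, below background in LNCaP, was at least 21.5-fold brighter in PC3 DMSO at 24 h and at least 15.4-fold at 48 h. LDHB, the lactate dehydrogenase form that favours pyruvate, was higher in LNCaP at 48 h (1.06), as were PFKM (1.08) and ALDOC (0.94). At 24 h LDHB read 11.40, 11.38 and 11.16 in PC3 DMSO and 11.56, 11.38 and 11.65 in LNCaP DMSO. The PC3 DMSO arrays of LDHB fell between the times, as given above. All these differences between lines set each probe against itself in the other line.

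Genes of the wider pathway outside the 43 were read from further lists, with the shares of all genes given above for each comparison. Among 25 tested genes of a list of other glycolysis and pyruvate genes, 2 were higher and 3 lower in PC3 at 24 h, 2 and 4 at 48 h, 2 and 1 in LNCaP at 24 h, and 5 and 2 at 48 h. The 5 of 25 called in PC3 at 24 h stand beside 23.0% of all genes, and the 6 of 25 at 48 h beside 45.8%. Their medians lay between 0.03 and 0.05. The largest change was that of SLC2A10, a glucose transporter family member, with PC3 differences of -0.83 ± 0.14 (adjusted p = 0.00017) after 24 h of Siomycin and -2.72 ± 0.14 (adjusted p = 4.6e-12) after 48 h. Among 36 tested genes of a list of other HIF pathway genes, 11 were higher and 1 lower in PC3 at 24 h, 11 and 8 at 48 h, 6 and 3 in LNCaP at 24 h, and 10 and 6 at 48 h. The 12 of 36 called in PC3 at 24 h stand beside 23.0% of all genes, and the 19 of 36 at 48 h beside 45.8%. ANGPTL4, an inhibitor of lipoprotein lipase and a HIF target, rose in PC3 from 6.98, 6.95 and 6.66 to 9.39, 9.41 and 9.57 at 48 h (2.59 ± 0.11, adjusted p = 5.2e-13) and was not above background on any LNCaP array. FAM162A, a mitochondrial protein, rose in PC3 at 48 h by 1.67 ± 0.17 (adjusted p = 1.3e-07).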

How the data were processed

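Gene expression was measured on 24 one-colour Illumina arrays of PC3 and LNCaP cells, grouped by their labels into 8 groups of 3. The deposited scanner values gave 1 linear intensity and 1 detection p-value per probe and array, per the file headers. The sources used here do not say how that p-value was computed, and they name no genome build. A second table deposited by the authors holds log2 values, and the submitters' processing notes name lumi. Taking log2 of the intensities and quantile normalizing them, with no background step, came within 0.0165 of every value in it.

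From the intensities, an adapted neqc was applied: each array was given a background centre, the median over probes with a detection p-value above 0.9, the SD came from dimmer probes, and normexp with an offset of 16, log2 and quantile normalization followed. The offset understates changes of dim probes. A probe was above background at a detection p-value under 0.01 and a signal above the centre, and 25215 probes that met this on 3 or more arrays entered the tests. Of 30119 listed probes 30111 had 1 gene symbol, 8 had several and were not named, and 17199 were unnamed. By gene number 30072 matched RefSeq GRCh38.p14, with 0 symbols changed. Several glycolytic enzymes have near-identical pseudogene copies, and probe sequences were not used here.

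Differences were tested with limma 3.58.1 in R 4.3.3 (lmFit and eBayes, 8 group means, 16 residual degrees of freedom), two-sided, with Benjamini-Hochberg adjustment over 13344 genes and calls at an adjusted p under 0.05; the procedure was tested on simulated data. Errors are standard errors. The number of arrays limits the precision. A gene not above background in a group has a fold given as a bound, the brighter group's mean against, on each dim array, the higher of the lowest signal above background and the gene's own signal. For each role and comparison, up to 6 called members with the largest change were named, with those called in opposite directions. Of the other lists some called genes were named, not all of the leading ones in each comparison. These and further members were named after their values were seen. The members and lists were chosen with earlier results of these data known. Alternatives were the background correction, offset, scaling, probe filter, probe rule, arrays in the fit, a replicate block, leaving out each array, and the 24 h controls.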

Additional observations from a re-analysis of the deposited data

Results flagged for a closer look

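These differences of the Siomycin effect between times or between lines passed the test of the difference itself (limma, adjusted p under 0.05), and are given where they reached 1 on the log2 scale, where the member was called in opposite directions, or where 3 or fewer members were called in that direction. No group held enough arrays for a test of outlying samples.

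In PC3 the effect at 48 h exceeded that at 24 h for 14 members, among them HK2 (1.21), ADM (1.66) and CA12 (1.22), and was smaller for 2, PFKFB4 (-0.78) and VEGFA (-0.92, lost without any 1 of 10 arrays). In LNCaP it was larger at 48 h for 6 members, among them NDRG1 (1.04) and P4HA2 (1.18), and smaller for 5. Against the PC3 DMSO arrays of 24 h, CA12 in PC3 Siomycin 48 h was at 0.31 (adjusted p = 0.031). With the same controls ADM was at 2.31, HK2 at 1.36, VEGFA at 1.21 and PFKFB4 at -0.37.

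Between the lines at 24 h, LNCaP minus PC3, the effect was higher for 1 member, HIF1A (0.70, lost over the mean of kept probes at 0.33, adjusted p = 0.31), and lower for 18, among them PFKFB3 (-1.13), ADM (-1.73), NDRG1 (-1.25) and HILPDA (-1.07). At 48 h it was higher for 3, HIF1A (0.89), ARNT (0.68) and VEGFA (1.35), and lower for 25. Against the DMSO arrays of 24 h of the same line, VEGFA with Siomycin at 48 h was at 1.21 in PC3 and 1.13 in LNCaP. The ARNT difference was lost under 5 processing settings and without any 1 of 7 arrays (0.27 to 0.71, adjusted p from 0.056 to 0.16). Of the enzymes, HK2 (-1.54), ALDOA (-1.46), ALDOC (-1.02), TPI1 (-0.68), GAPDH (-0.84), ENO1 (-0.92), ENO2 (-1.17), LDHA (-1.0) and PFKFB3 (-1.43) were among those 25. So were the transporter SLC2A1 (-1.63), the prolyl hydroxylase EGLN1 (-1.09) and the HIF targets ADM (-3.69), CA12 (-1.72) and HILPDA (-1.57). Against the PC3 DMSO arrays of 24 h, the values of TPI1, ENO1 and LDHA in PC3 Siomycin 48 h were negative. At 48 h the 3 ALDOA probes ranged from -0.14 to 0.49 in LNCaP and from -0.07 to 1.32 in PC3. The 3 HIF1A probes ranged from 0.16 to 0.39 in LNCaP and from -0.50 to -0.04 in PC3.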

How the results depend on the processing

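Fitted values of dim members, such as ARNT in PC3 and ADM in LNCaP, are limited by the signal over background. Calls of single members kept their side of the threshold in 183 of 183 results with an offset of 50 and with a stricter probe filter, in 179 with no background correction and with the authors' deposited log2 table, in 175 with cyclic loess, in 173 without a probe filter, in 164 with the mean of kept probes, in 161 with only the arrays of the contrast and in 117 with median centring. Leaving out 1 array kept 1359 results and lost 183. Median centring moved the median log2 fold change of all genes in PC3 at 48 h from -0.04 to -0.21. Where a setting changed a count, the cause was not tested.

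With median centring the members called were 0 lower in PC3 at 24 h, 2 lower in PC3 at 48 h, 1 higher and 2 lower in LNCaP at 24 h, and 8 higher and 4 lower in LNCaP at 48 h. The effect grew with time for 5 in PC3 and for 2 in LNCaP, where it shrank for 0, the lines at 24 h differed upward for 0 and downward for 7, and 1 rose in the PC3 controls. Cyclic loess left 2 lower in LNCaP at 24 h. Without a probe filter 0 were lower in PC3 at 24 h and the PC3 effect shrank with time for 1. The mean of kept probes gave 0 lower in PC3 at 24 h and at 48 h, a shrinking effect for 1 in PC3 and 2 in LNCaP, and 0 upward differences between lines at 24 h. With only the arrays of the contrast, LNCaP at 24 h had 0 higher and 1 lower, the LNCaP effect grew for 2 and shrank for 2, and 0 upward differences between lines at 24 h were called. Against the 24 h controls 3 members were lower in PC3 at 48 h.

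Leaving out each array gave 0 to 1 lower in PC3 at 24 h and at 48 h, 1 to 7 higher and 2 to 7 lower in LNCaP at 24 h, a shrinking effect for 1 to 2 in PC3, a growing effect for 2 to 7 and a shrinking one for 2 to 5 in LNCaP, and 0 to 1 upward differences between lines at 24 h.

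Against the 24 h controls, PC3 Siomycin 48 h turned direction for 10 members called against either control: TPI1 (-0.0751, adjusted p = 0.67), PGK1 (-0.23, 0.078), PGAM1 (-0.36, 0.02), ENO1 (-0.0931, 0.37), LDHA (-0.17, 0.034), LDHB (-0.0242, 0.87), PFKFB4 (-0.37, 0.0041), HIF1A (0.0684, 0.74), EPAS1 (-0.0894, 0.56) and VEGFA (1.21, 0.00017). PKM, called against neither, went from 0.08 to -0.13. These arrays differ in time from their control, and time and treatment cannot be told apart there.

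Replicate numbers did not pair the arrays: of 84 pairs of arrays with the same number, 1 had a correlation of deviations over 0.1, and the range was -0.15 to 0.16. With the replicate block, 1 of 183 single results lost its call, the PC3 time difference of P4HA2 (0.46, adjusted p = 0.057), and members called higher and lower were 24 and 1 in PC3 at 24 h, 31 and 1 in PC3 at 48 h, 5 and 4 in LNCaP at 24 h and 13 and 7 in LNCaP at 48 h.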

Other observations

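Of the HIF pathway genes outside the 43, HMOX1, heme oxygenase 1, had the largest change in PC3. It read 6.28, 6.58 and 6.46 with DMSO and 9.50, 9.72 and 9.76 with Siomycin at 24 h (3.23 ± 0.13, adjusted p = 9.7e-13, limma), and 6.56, 7.15 and 6.94 against 10.14, 10.14 and 10.18 at 48 h (3.27 ± 0.13, adjusted p = 1.5e-13). HMOX1 also rose in LNCaP, by 1.02 ± 0.13 after 24 h and 1.06 ± 0.13 after 48 h (adjusted p = 7.5e-06 and 2e-06). HMOX1 is known as a target of NRF2 as well as of HIF. DDIT4, an inhibitor of the growth kinase mTOR, changed on the PC3 control arrays more than with Siomycin. Its DMSO arrays read 7.59, 7.67 and 7.74 at 24 h and 11.39, 11.43 and 11.42 at 48 h, and its Siomycin arrays 9.80, 10.08 and 9.90 at 24 h and 11.85, 11.85 and 11.86 at 48 h. In LNCaP DDIT4 rose with Siomycin by 1.77 ± 0.09 after 24 h and 1.89 ± 0.09 after 48 h (adjusted p = 3.8e-11 and 5.1e-12). Other genes of that list fell in LNCaP. Of its 36 tested genes, 6 were higher and 3 lower there at 24 h, and 10 and 6 at 48 h. The lowest log2 fold changes were -1.87 at 24 h, for TXNIP, and -1.56 at 48 h, for WSB1.

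STC2, a secreted glycoprotein induced by stress, was called in opposite directions within PC3. It rose with Siomycin at 24 h by 0.47 ± 0.08 (adjusted p = 0.00013), and at 48 h it read 11.66, 11.72 and 11.61 with DMSO and 10.42, 10.38 and 10.44 with Siomycin, a fall of 1.25 ± 0.08 on the log2 scale (adjusted p = 6.4e-11). The PC3 DMSO arrays of STC2 had been at 10.15, 10.15 and 10.28 at 24 h. In LNCaP STC2 rose at both times, by 1.44 ± 0.08 (adjusted p = 5.6e-11) and 1.88 ± 0.08 (adjusted p = 6.7e-13). SLC2A12, a glucose transporter family member, rose in LNCaP at 48 h from 7.55, 7.48 and 7.49 to 8.99, 9.00 and 8.95 (1.48 ± 0.16, adjusted p = 4.5e-07), and its PC3 differences of 0.26 ± 0.16 and 0.19 ± 0.16 missed the threshold (adjusted p = 0.3 and 0.37).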
